A study of Mus musculus with 9 samples.

Results

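The 46 genes described here encode the machinery with which an adipocyte takes up, makes and stores fat: lipid droplet coat proteins, fatty acid uptake and binding proteins, secreted adipocyte products, enzymes of fatty acid synthesis, desaturation, elongation and activation, enzymes of triglyceride assembly, lipases, and a few regulators. They were chosen by symbol, as a list of adipocyte lipid storage and fatty acid genes, and each was read from the probe set whose annotated symbol was exactly that gene's. Of the 46 genes, 42 had such a probe set among the 22180 genes named on the array, and 31 of the 12630 genes bright enough to test were members. Scd2 and Acsl3 lay on probe sets shared by several genes, and Cfd and Acsl1 were not named in the annotation used here, so these 4 have no value.

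The cells were 3T3-L1, mouse embryo fibroblasts that hormones can turn into adipocytes, and RNA was read on oligonucleotide arrays. All groups were confluent pre-adipocytes growth-arrested for 48 h, and each group had 3 arrays. The first group received an siRNA against CD24, a small surface glycoprotein encoded by Cd24a in the mouse, and then 0.5 mM IBMX with 1 µM dexamethasone (IBMX/Dex) for 6 h. The second received a scrambled siRNA and the same 6 h of IBMX/Dex, and the third received vehicle. IBMX blocks phosphodiesterases and so raises cAMP, and dexamethasone is a synthetic glucocorticoid. Whether vehicle cells were transfected is not stated in the labels, so IBMX/Dex and any effect of transfection cannot be told apart in the comparisons with vehicle. Nor is it stated that replicates came from separate cultures, so p-values reflect only the spread among these samples, which may be technical.

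A fat cell builds fatty acids from acetyl-CoA, joins them to a glycerol backbone through a chain of acyltransferases, and packs the resulting triglyceride into a droplet coated with perilipins. Lipases take the triglyceride apart again when cAMP rises. In 3T3-L1 cells most of these genes are known to come on in the days after hormone treatment, under PPARγ and C/EBPα, and the cells of this study were taken well before that stage.

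Of the 31 tested members, 8 were called against vehicle in both IBMX/Dex groups, at an adjusted p under 0.05 in limma without blocking on replicate number. Of all tested genes, 6.65% were called with CD24 siRNA and 6.94% with scrambled siRNA. The block called 14 members with CD24 siRNA and 15 with scrambled siRNA, beside 22.4% and 23.3% of tested genes. For 6 of the 8, RefSeq (GRCm38.p6) gave the 250 bases upstream of the start site. They are printed to show the sequence upstream of the genes that moved, 5′ to 3′ on the gene's strand. Capitals mark 5 motifs searched on both strands, which are the cAMP response element TGACGTCA, its core TGACG, the E-box CACGTG, the glucocorticoid response element core AGAACA and the CCAAT box. The windows are chrX:142390536-142390785 for Acsl4 (minus strand), chr9:77917115-77917364 for Elovl5 (plus strand), chr11:120824548-120824797 for Fasn (minus strand), chr4:86670060-86670309 for Plin2 (minus strand), chr17:56290512-56290761 for Plin3 (minus strand) and chr19:10101504-10101753 for Fads2 (minus strand).
Acsl4: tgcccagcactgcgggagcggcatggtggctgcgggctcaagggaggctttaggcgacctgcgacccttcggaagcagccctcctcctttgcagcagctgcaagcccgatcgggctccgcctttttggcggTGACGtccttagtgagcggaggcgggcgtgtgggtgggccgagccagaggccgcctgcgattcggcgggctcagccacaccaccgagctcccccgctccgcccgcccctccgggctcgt
Elovl5: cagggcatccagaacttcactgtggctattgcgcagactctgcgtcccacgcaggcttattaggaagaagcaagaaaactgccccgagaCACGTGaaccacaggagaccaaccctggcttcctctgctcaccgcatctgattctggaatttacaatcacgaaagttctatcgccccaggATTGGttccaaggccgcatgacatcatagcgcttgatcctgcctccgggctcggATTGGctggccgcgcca
Fasn: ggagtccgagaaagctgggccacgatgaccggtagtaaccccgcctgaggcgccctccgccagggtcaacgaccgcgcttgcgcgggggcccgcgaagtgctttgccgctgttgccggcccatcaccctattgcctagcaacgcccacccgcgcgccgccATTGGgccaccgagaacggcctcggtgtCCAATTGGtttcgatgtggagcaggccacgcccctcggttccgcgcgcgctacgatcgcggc
Plin2: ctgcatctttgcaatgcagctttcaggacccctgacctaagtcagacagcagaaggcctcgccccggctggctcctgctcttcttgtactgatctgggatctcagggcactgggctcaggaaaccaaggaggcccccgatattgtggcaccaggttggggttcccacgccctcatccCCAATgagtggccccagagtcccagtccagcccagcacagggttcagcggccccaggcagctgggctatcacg
Plin3: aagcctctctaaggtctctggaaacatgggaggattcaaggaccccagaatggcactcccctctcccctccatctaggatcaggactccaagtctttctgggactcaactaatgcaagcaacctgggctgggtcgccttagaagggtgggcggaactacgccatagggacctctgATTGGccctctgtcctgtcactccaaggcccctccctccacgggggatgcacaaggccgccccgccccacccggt
Fads2: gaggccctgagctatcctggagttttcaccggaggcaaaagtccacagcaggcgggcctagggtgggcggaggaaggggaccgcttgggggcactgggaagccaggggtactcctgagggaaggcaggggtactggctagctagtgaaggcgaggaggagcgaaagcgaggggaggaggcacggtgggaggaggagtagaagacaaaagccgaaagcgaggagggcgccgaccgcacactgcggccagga
The Fasn window held 3 CCAAT boxes, of which a pair overlapped, and the Elovl5 window held 2 CCAAT boxes and 1 E-box. Plin2 and Plin3 held 1 CCAAT box each, Acsl4 held 1 core of the cAMP response element, and Fads2 held none of the motifs. Neither the full cAMP response element nor the glucocorticoid core occurred in these 6 windows. Among the 32851 RefSeq mouse promoters of the same length, 33.8% held a CCAAT box, 17.8% the cAMP core, 16.1% the glucocorticoid core, 6.02% the E-box and 1.55% the full cAMP element, which also contains its core. A match describes the letters in the window only, and binding was not measured.

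Values are log2 signals that are comparable between arrays for 1 gene but not between genes, and array medians lay between 6.47 and 6.56. Arrays of a group correlated at 0.963 to 0.990 over all probe sets. The targeted gene went against a label: Cd24a read 10.15, 10.16 and 11.72 with CD24 siRNA, 11.19, 11.73 and 11.81 with scrambled siRNA and 8.88, 9.92 and 9.49 with vehicle, so the array labelled CD24 siRNA replicate 3 lay within the scrambled range. The CD24 siRNA calls of named genes that end when it is left out are named with their values without it. Of the 10 fibroblast and pre-adipocyte markers on the array, 9 reached the filter level of 6.51. Of the markers of other cell types, 3 of 6 for macrophages, 4 of 5 for skeletal muscle, 1 of 4 for endothelium and 2 of 4 for epithelium did. The mean level of the fibroblast and pre-adipocyte markers was lower after IBMX/Dex. It was 10.86 to 10.94 with CD24 siRNA and 10.84 to 10.98 with scrambled siRNA, against 11.26 to 11.40 with vehicle. The 9 tested markers differed from vehicle by -1.61 to 0.17 with CD24 siRNA and by -1.66 to 0.24 with scrambled siRNA. Pdgfrb and Pdgfra fell most, and Thy1 was higher. The part of this mean level in the member results was not tested. Of the secreted adipocyte products, Adipoq and Lep were near background in all groups, Retn averaged 6.64 and Cfd had no value. Other fat cell genes divided: Fabp4 averaged 9.60, Lpl 11.08 and Pparg 10.23, while Plin1, Cidec and Slc2a4 were near background. Of the macrophage markers, Ptprc, Adgre1 and Itgam were near background, while Cd14 averaged 8.61, Cd68 8.26 and Csf1r 6.97. Of the endothelial markers, Pecam1, Kdr and Tek were near background, while Cdh5 averaged 6.75. In such bulk RNA, fewer cells of a type and less RNA per cell cannot be told apart.

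At 6 h part of the list was near background. Among the 42 members on the array, 12 had a mean below the filter level, defined as the median value of the whole table. These were the droplet proteins Plin1, Cidec and Cidea, the hormones Adipoq and Lep, the lipogenic regulators Thrsp and Mlxipl, the elongase Elovl3, the lipases Pnpla3 and Mgll, the phosphatidate phosphatase Lpin3 and the insulin-responsive glucose transporter Slc2a4. Their means ran from 5.49 for Cidea to 6.37 for Lpin3, and their values on single arrays from 5.19 to 6.63. A second yardstick came from 1390 olfactory and vomeronasal receptor genes, which fibroblasts are not expected to express: 95% of their means lay below 6.57, and Pck1, at 6.53, was the only further member under it. Near the filter level, within 0.25 log2 units, stood 9 members, namely Acacb at 6.74, Cd36 at 6.70, Retn at 6.64, Gpd1 at 6.58, Pck1 at 6.53, Lpin3 at 6.37, Plin1 at 6.33, and Pnpla3 and Mgll at 6.28 each. RMA compresses differences of dim probe sets, so a change at these levels may not be detectable.

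Of those 12 genes, 11 failed the filter, while Lpin3 passed it with 3 of its 9 arrays. When the 11 were fitted without the filter, none was called in any comparison. Their differences from vehicle ran from -0.22 to 0.18 log2 units with CD24 siRNA and from -0.27 to 0.12 with scrambled siRNA, and the lowest adjusted p in limma was 0.581 with CD24 siRNA and 0.429 with scrambled siRNA. Adiponectin (Adipoq), the abundant adipocyte hormone, read 5.33, 5.47 and 5.47 with CD24 siRNA, 5.47, 5.26 and 5.64 with scrambled siRNA and 5.68, 5.89 and 5.35 with vehicle. Perilipin 1 (Plin1), the coat protein of mature fat droplets, read 6.46, 6.25 and 6.33 with CD24 siRNA, 6.41, 6.32 and 6.30 with scrambled siRNA and 6.38, 6.32 and 6.22 with vehicle. The groups of both genes overlapped.

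**Figure D1:**
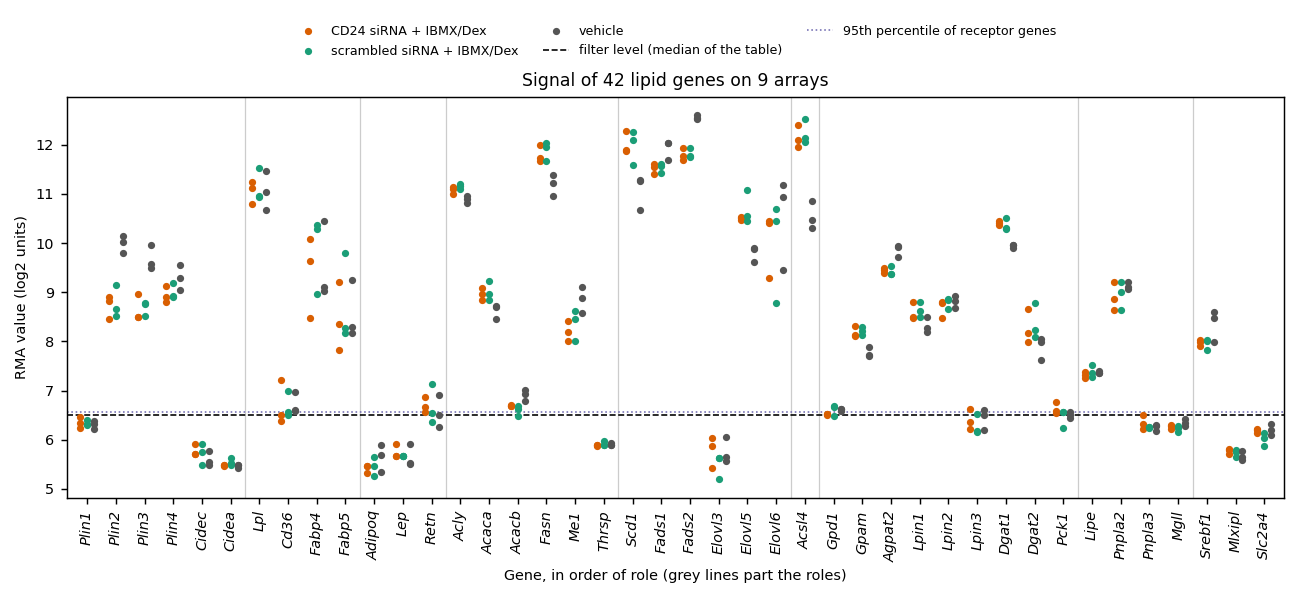
Log2 signal (vertical axis) of the 42 members with a named probe set, with genes from left to right in order of role. Points are single arrays, coloured by group, the dashed line is the filter level of 6.51 and the dotted line the receptor yardstick of 6.57; 12 genes have a mean under the filter level.

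Against vehicle, members moved in both directions. With CD24 siRNA and IBMX/Dex, 5 of the 31 tested members rose (Fasn, Scd1, Elovl5, Acsl4 and Dgat1) and 3 fell (Plin2, Plin3 and Fads2) at an adjusted p under 0.05 in limma, where 2.92% of all tested genes rose and 3.73% fell. With scrambled siRNA and IBMX/Dex, 6 rose (the same 5 and Gpam) and 4 fell (the same 3 and Agpat2), where 3.33% of all tested genes rose and 3.6% fell. In all, 25.8% of tested members were called with CD24 siRNA, beside 6.65% of tested genes, and 32.3% with scrambled siRNA, beside 6.94%. Under a stricter filter at 8.07, 10 of 23 members were called in each comparison, beside 10.2% of genes with CD24 siRNA and 10.6% with scrambled siRNA. Both comparisons use the same vehicle arrays, so their likeness is not independent.

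The rises and falls balanced over the list. The median member difference from vehicle was -0.05 log2 units with CD24 siRNA, beside 0.01 over all tested genes, and -0.0007 with scrambled siRNA, beside 0.02. The median size without sign was 0.35 with CD24 siRNA, beside 0.18 over all tested genes, and 0.38 with scrambled siRNA, beside 0.19. All 6 IBMX/Dex arrays lay above all 3 vehicle arrays for 8 members and below them for 6, where 9.3% of all tested genes lay above and 10.4% below. Each group taken alone, 8 members lay wholly above and 8 wholly below vehicle with CD24 siRNA, where 12.1% and 13.7% (25.8% in all) of tested genes did. With scrambled siRNA 10 lay above and 6 below, where 12.8% and 12.4% (25.2% in all) did. The 5 members with the highest mean signal, given only as levels, were Fads2, Scd1, Fads1, Acsl4 and Fasn.

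Same-numbered arrays deviated together, so member calls changed by blocking on the replicate number are given both ways. With the block, 7 members rose and 7 fell with CD24 siRNA, where 10.4% of tested genes rose and 12.1% fell (22.4% in all). With scrambled siRNA, 8 rose and 7 fell, where 11.9% rose and 11.4% fell (23.3% in all). Without the array labelled CD24 siRNA replicate 3, only Acsl4, Plin2 and Fads2 passed in the CD24 siRNA comparison, 1 rise and 2 falls, where 1.29% of tested genes rose and 1.25% fell. With the block and without that array 5 members rose and 4 fell, where 7.28% of tested genes rose and 6.68% fell.

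**Figure D2:**
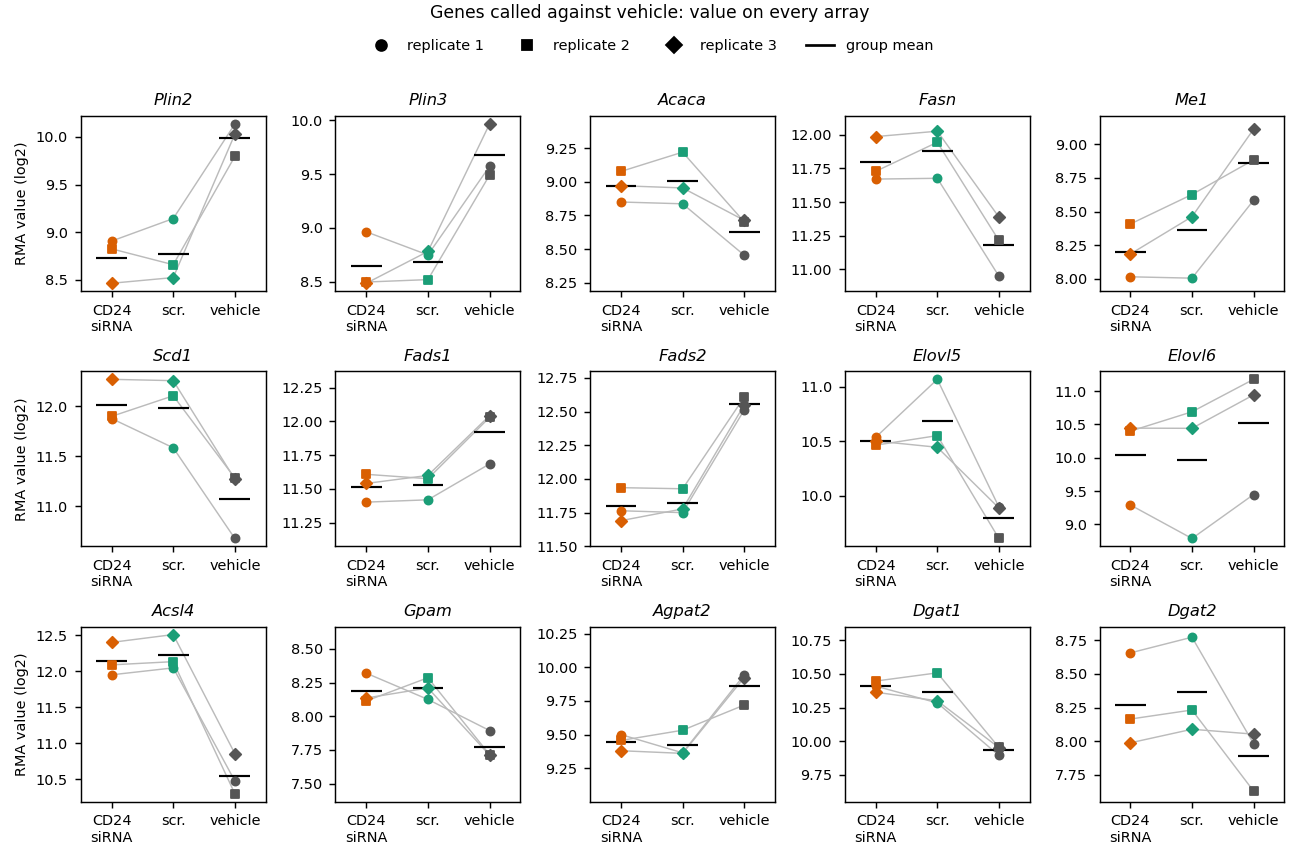
Log2 signal (vertical axis, a range of its own for each gene) on the 9 arrays for the 15 members called against vehicle without or with the replicate block, with CD24 siRNA, scrambled siRNA (scr.) and vehicle from left to right. Marker shapes are replicate numbers, grey lines join same-numbered arrays and black bars are group means; Acsl4 is higher in both IBMX/Dex groups than in vehicle, and Plin2 is lower.

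Of the 3 droplet coat genes tested, Plin2 and Plin3 fell and Plin4 was not called. Perilipin 2 (Plin2), which coats small droplets in most cell types, read 8.91, 8.83 and 8.46 with CD24 siRNA, 9.14, 8.66 and 8.52 with scrambled siRNA and 10.13, 9.79 and 10.03 with vehicle. Every IBMX/Dex array was below every vehicle array. Plin2 was 2.38-fold lower with CD24 siRNA (log2 -1.25, SE 0.187, adjusted p = 0.00685 in limma) and 2.31-fold lower with scrambled siRNA (log2 -1.21, adjusted p = 0.00717). Perilipin 3 (Plin3), a cytosolic protein that moves to nascent droplets, read 8.96, 8.50 and 8.49 with CD24 siRNA, 8.75, 8.52 and 8.78 with scrambled siRNA and 9.57, 9.49 and 9.96 with vehicle. Its groups were likewise apart, at 2.04-fold lower with CD24 siRNA (adjusted p = 0.0112) and 1.99-fold lower with scrambled siRNA (adjusted p = 0.0128). With the array labelled CD24 siRNA replicate 3 left out, the Plin3 adjusted p was 0.0515. Perilipin 4 (Plin4), another coat of nascent droplets, read 9.12, 8.80 and 8.90 with CD24 siRNA, 8.89, 9.18 and 8.92 with scrambled siRNA and 9.28, 9.56 and 9.04 with vehicle, with overlap, and was not called (adjusted p = 0.222 with CD24 siRNA and 0.304 with scrambled siRNA).

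Genes of fatty acid uptake and binding were not called in either comparison, and their spread followed the replicate number. Lipoprotein lipase (Lpl), which frees fatty acids from circulating triglyceride, read 11.23, 10.80 and 11.12 with CD24 siRNA, 11.52, 10.95 and 10.93 with scrambled siRNA and 11.47, 11.04 and 10.67 with vehicle, and differed from vehicle by -0.01 log2 units with CD24 siRNA and 0.07 with scrambled siRNA. The fatty acid carrier Fabp4, a classic marker of fat cell differentiation, read 9.63, 8.47 and 10.09 with CD24 siRNA, 10.36, 8.97 and 10.28 with scrambled siRNA and 9.10, 9.03 and 10.44 with vehicle. The Fabp4 values of the 3 groups overlapped, and its same-numbered differences with scrambled siRNA were 1.26, -0.06 and -0.16. For Fabp5, a related carrier, replicate 1 was the highest in every group, at 9.20 with CD24 siRNA, 9.81 with scrambled siRNA and 9.24 with vehicle. The fatty acid transporter Cd36, with a mean of 6.70 just above the filter level, differed from vehicle by -0.02 with CD24 siRNA and -0.03 with scrambled siRNA. Retn, the hormone resistin, was the only secreted product that passed the filter, and differed by 0.14 with CD24 siRNA and 0.12 with scrambled siRNA.

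Of the enzymes of fatty acid synthesis, fatty acid synthase rose. Fasn, which builds palmitate, read 11.67, 11.73 and 11.99 with CD24 siRNA, 11.68, 11.94 and 12.03 with scrambled siRNA and 10.95, 11.22 and 11.39 with vehicle. The lowest IBMX/Dex array was above the highest vehicle array. Fasn was 1.53-fold higher with CD24 siRNA (log2 0.61, SE 0.153, adjusted p = 0.0465; 0.00203 with the block) and 1.62-fold higher with scrambled siRNA (log2 0.70, adjusted p = 0.0294; 0.00102 with the block). Acetyl-CoA carboxylase Acaca, the enzyme that makes malonyl-CoA for Fasn, read 8.85, 9.08 and 8.97 with CD24 siRNA, 8.84, 9.22 and 8.95 with scrambled siRNA and 8.45, 8.70 and 8.71 with vehicle. Its groups did not overlap, but it passed only with the block (adjusted p = 0.0301 with CD24 siRNA and 0.0186 with scrambled siRNA, and without it 0.168 with CD24 siRNA and 0.129 with scrambled siRNA).

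Malic enzyme (Me1), a source of NADPH for fatty acid synthesis, differed in the other direction. It read 8.02, 8.41 and 8.19 with CD24 siRNA, 8.01, 8.63 and 8.46 with scrambled siRNA and 8.58, 8.88 and 9.11 with vehicle. The scrambled siRNA and vehicle values overlapped by 1 array of each group, and Me1 passed only with the block (log2 -0.66, adjusted p = 0.00408 with CD24 siRNA; log2 -0.50, adjusted p = 0.0138 with scrambled siRNA). ATP citrate lyase (Acly), which supplies cytosolic acetyl-CoA, differed by 0.19 with CD24 siRNA and 0.26 with scrambled siRNA, and the carboxylase Acacb, tied to fatty acid oxidation, by -0.22 with CD24 siRNA and -0.31 with scrambled siRNA. Neither Acly nor Acacb passed in either fit, although no IBMX/Dex array of these genes overlapped a vehicle array.

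The desaturases and elongases divided. Stearoyl-CoA desaturase (Scd1), which makes monounsaturated fatty acids, read 11.88, 11.90 and 12.27 with CD24 siRNA, 11.58, 12.10 and 12.26 with scrambled siRNA and 10.68, 11.28 and 11.27 with vehicle. Scd1 was 1.92-fold higher with CD24 siRNA (log2 0.94, SE 0.223, adjusted p = 0.04; 0.000942 with the block) and 1.87-fold higher with scrambled siRNA (adjusted p = 0.0442; 0.00104 with the block). Elovl5, an elongase of polyunsaturated fatty acids, read 10.54, 10.46 and 10.50 with CD24 siRNA, 11.07, 10.55 and 10.45 with scrambled siRNA and 9.90, 9.61 and 9.89 with vehicle. It was 1.63-fold higher with CD24 siRNA (adjusted p = 0.0385) and 1.85-fold higher with scrambled siRNA (adjusted p = 0.0163). The groups of both genes were apart from vehicle.

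The polyunsaturated fatty acid desaturases lay on the other side. Fads2 read 11.76, 11.94 and 11.69 with CD24 siRNA, 11.75, 11.93 and 11.78 with scrambled siRNA and 12.51, 12.61 and 12.55 with vehicle. It was 1.69-fold lower with CD24 siRNA (log2 -0.76, SE 0.105, adjusted p = 0.00493) and 1.67-fold lower with scrambled siRNA (log2 -0.74, adjusted p = 0.00532). Fads1, the desaturase that acts later in the same pathway, read 11.40, 11.61 and 11.54 with CD24 siRNA, 11.42, 11.58 and 11.60 with scrambled siRNA and 11.68, 12.03 and 12.04 with vehicle. Its groups were apart, and it passed with the block only (log2 -0.40, adjusted p = 0.0137 with CD24 siRNA; log2 -0.39, adjusted p = 0.0155 with scrambled siRNA). Elovl6, which lengthens palmitate, read 9.29, 10.40 and 10.44 with CD24 siRNA, 8.79, 10.69 and 10.44 with scrambled siRNA and 9.45, 11.18 and 10.94 with vehicle. Replicate 1 was the lowest in every group and the groups overlapped, and it passed only with the block (log2 -0.48, adjusted p = 0.0384 with CD24 siRNA; log2 -0.55, adjusted p = 0.0211 with scrambled siRNA). The same-numbered Elovl6 differences were -0.16, -0.78 and -0.50 with CD24 siRNA and -0.66, -0.49 and -0.50 with scrambled siRNA. Without scrambled siRNA replicate 1 the unblocked Elovl6 difference for scrambled siRNA was 0.043. That fit kept the low vehicle replicate 1 without its same-numbered partner.

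The acyl-CoA synthetase Acsl4, which activates arachidonic and related fatty acids, changed most in size among the 31 tested members. It read 11.95, 12.09 and 12.40 with CD24 siRNA, 12.05, 12.14 and 12.51 with scrambled siRNA and 10.48, 10.30 and 10.86 with vehicle. All IBMX/Dex arrays were more than 1 log2 unit above the highest vehicle array. Acsl4 was 3.04-fold higher with CD24 siRNA (log2 1.60, SE 0.189, adjusted p = 0.00229 in limma) and 3.22-fold higher with scrambled siRNA (log2 1.69, adjusted p = 0.0016).

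Triglyceride assembly showed small changes at several steps. Gpam, the mitochondrial acyltransferase of the first step, read 8.32, 8.11 and 8.14 with CD24 siRNA, 8.13, 8.29 and 8.21 with scrambled siRNA and 7.89, 7.72 and 7.71 with vehicle. It was 1.35-fold higher with scrambled siRNA (adjusted p = 0.0448) and 0.42 log2 units higher with CD24 siRNA, where it passed with the block only (adjusted p = 0.0522, and 0.019 with the block). Agpat2, the acyltransferase of the next step, read 9.50, 9.46 and 9.38 with CD24 siRNA, 9.37, 9.53 and 9.36 with scrambled siRNA and 9.94, 9.72 and 9.92 with vehicle. It was 1.36-fold lower with scrambled siRNA (adjusted p = 0.0403), and its difference of -0.42 with CD24 siRNA passed with the block only (adjusted p = 0.0509, and 0.0212 with the block). All IBMX/Dex arrays of both genes were on one side of the vehicle arrays.

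Of the enzymes that add the last fatty acid, Dgat1 was called. It read 10.41, 10.45 and 10.36 with CD24 siRNA, 10.28, 10.51 and 10.30 with scrambled siRNA and 9.89, 9.95 and 9.95 with vehicle. Dgat1 was 1.39-fold higher with CD24 siRNA (SE 0.0990, adjusted p = 0.0257) and 1.35-fold higher with scrambled siRNA (adjusted p = 0.0348). Dgat2, an unrelated enzyme of the same step, read 8.66, 8.16 and 7.99 with CD24 siRNA, 8.77, 8.23 and 8.09 with scrambled siRNA and 7.98, 7.63 and 8.05 with vehicle. It passed only with the block and only for scrambled siRNA (log2 0.48, adjusted p = 0.0448; with CD24 siRNA log2 0.38, adjusted p = 0.0969). Its scrambled siRNA arrays were all above the vehicle arrays, while 1 CD24 siRNA array was not. The phosphatidate phosphatases Lpin1, Lpin2 and Lpin3, the glycerol phosphate dehydrogenase Gpd1 and Pck1, which serves glycerol synthesis in fat cells, were not called in either fit, with differences of -0.15 to 0.32.

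The lipases that passed the filter did not reach the threshold. Adipose triglyceride lipase (Pnpla2) averaged 8.90 ± 0.283 with CD24 siRNA, 8.95 ± 0.289 with scrambled siRNA and 9.13 ± 0.0744 with vehicle (SD, n = 3 each; adjusted p = 0.519 with CD24 siRNA and 0.619 with scrambled siRNA). Hormone-sensitive lipase (Lipe) averaged 7.32 ± 0.0640 with CD24 siRNA, 7.38 ± 0.119 with scrambled siRNA and 7.37 ± 0.0193 with vehicle. Srebf1, a transcription factor that drives fatty acid synthesis genes, read 8.03, 7.99 and 7.90 with CD24 siRNA, 8.00, 8.02 and 7.83 with scrambled siRNA and 8.47, 7.99 and 8.59 with vehicle. Vehicle replicate 2 stood with the treated arrays, and Srebf1 was not called (log2 -0.38, adjusted p = 0.196 with CD24 siRNA; log2 -0.40, adjusted p = 0.167 with scrambled siRNA).

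**Figure D3:**
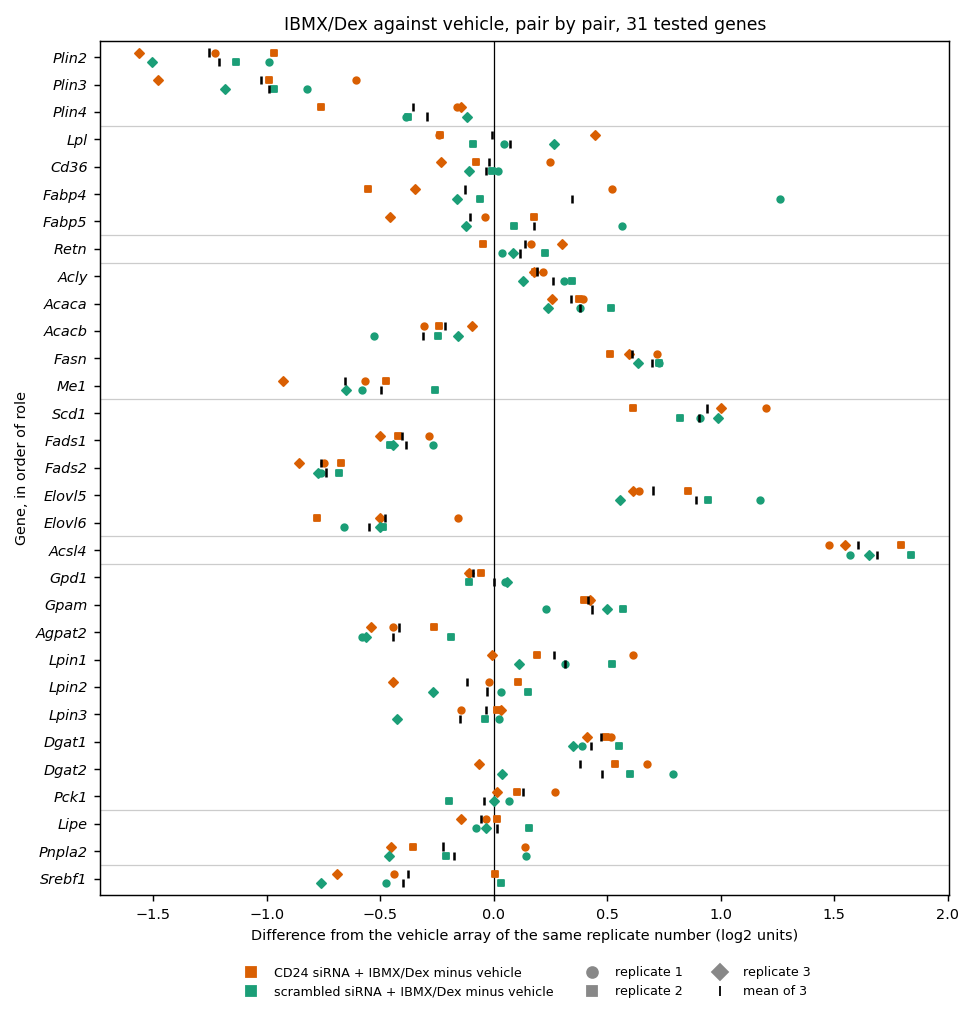
Difference between each IBMX/Dex array and the vehicle array of the same replicate number, in log2 units on the horizontal axis, for the 31 tested members down the page in order of role. Orange is CD24 siRNA and green is scrambled siRNA, marker shapes are replicate numbers and black ticks are the mean of 3; Acsl4 lies farthest right and Plin2 farthest left.

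Some calls lay close to the threshold and ended when 1 array was left out. Leaving out an array of the group not compared keeps the difference unchanged and takes degrees of freedom from the shared spread. For Dgat1 with scrambled siRNA the log2 difference stayed 0.43 without CD24 siRNA replicate 3, while its adjusted p in limma was 0.0515. Leaving out each of the 9 arrays in turn, Plin2, Fads2 and Acsl4 were called every time in both comparisons, and Plin3 and Elovl5 every time with scrambled siRNA. With scrambled siRNA, Fasn lost its call in 5 of the 9 omissions (adjusted p up to 0.111), Scd1 in 8 (up to 0.15), Gpam in 8 (up to 0.137), Agpat2 in 8 (up to 0.144) and Dgat1 in 9 (up to 0.107). With CD24 siRNA, Elovl5 lost it in 7 (up to 0.113), Fasn in 8 (up to 0.146), Scd1 in 8 (up to 0.134), Dgat1 in 5 (up to 0.0942) and Plin3 in 1. With the array labelled CD24 siRNA replicate 3 left out, the CD24 siRNA calls that ended had an adjusted p of 0.146 for Fasn, 0.134 for Scd1, 0.113 for Elovl5, 0.068 for Dgat1 and 0.0515 for Plin3. Of the calls made with the block, those of Acaca (0.0838), Fads1 (0.0643), Elovl6 (0.119), Gpam (0.0577) and Agpat2 (0.0844) ended without it. With the replicate block, Plin2, Plin3, Fasn, Scd1, Fads2, Elovl5 and Acsl4 kept their calls in both comparisons when a replicate number or the array labelled CD24 siRNA replicate 3 was left out.

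The members differed in whether the group or the replicate number carried their variation. Over the 31 tested members the median share of the sum of squares was 56.3% for the group and 21.7% for the number, where over all tested genes it was 28.3% and 36.3%. The group held over 50% for 17 members (54.8%), where it did so for 27.3% of all tested genes. The number held over 50% for 6 members (19.4%), a smaller share than the 34.6% of all tested genes. These 6 were Fabp5 at 89.7%, Cd36 at 89.2%, Elovl6 at 86.5%, Retn at 83.7%, Fabp4 at 75.2% and Lpl at 73.1%, so that all genes of uptake and binding were among them. The direction was not shared: replicate 1 was high for Fabp5, with number means of 9.42, 8.26 and 8.09, and low for Elovl6, with 9.18, 10.75 and 10.61. For Fabp4 replicate 2 was low, with 9.70, 8.82 and 10.27. The labels do not say what the replicate numbers stand for.

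**Figure D4:**
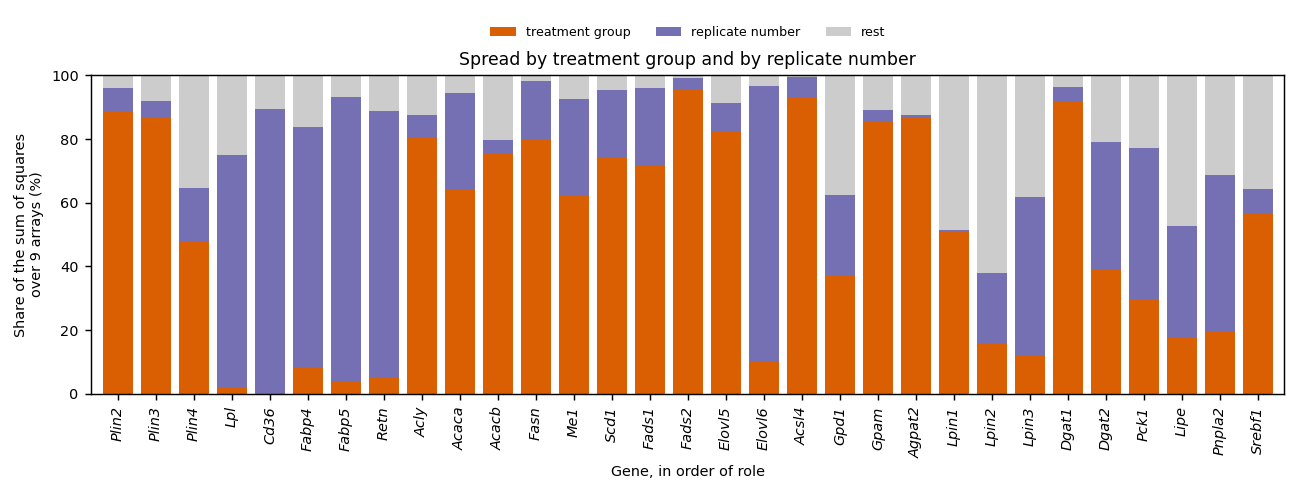
Share of each tested member's sum of squares over 9 arrays (vertical axis, percent) held by the treatment group (orange), the replicate number (purple) and the rest (grey), with the 31 genes from left to right in order of role. Purple exceeds 50% for Lpl, Cd36, Fabp4, Fabp5, Retn and Elovl6.

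Between CD24 siRNA and scrambled siRNA under IBMX/Dex, no member was called by limma without or with the block, and no member had an unadjusted p under 0.05, where 0 of 12630 genes were called and 0.238% of genes without the block and 1.73% with it had an unadjusted p under 0.05. The 31 differences ran from -0.47 for Fabp4 to 0.17 for Pck1, with a median of -0.04 beside -0.01 over all tested genes. The median size without sign was 0.0684, beside 0.0642 over all genes. No member had the CD24 siRNA arrays wholly apart from the scrambled siRNA arrays, where 0.879% of tested genes were wholly higher and 1.54% wholly lower (2.41% in all).

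The intervals show what 3 arrays a group can exclude for the groups as labelled. They include the array labelled CD24 siRNA replicate 3, so they do not bound the effect of a lowered Cd24a. For Acsl4 the difference was -0.08 with a 95% interval of -0.51 to 0.34, and for Plin2 -0.04 with an interval of -0.47 to 0.38. Neither interval reaches the size of that gene's difference from vehicle. For Fabp4 the difference was -0.47, with an interval of -1.69 to 0.74, and -1.004 to 0.06 with the block. Its same-numbered differences were -0.74, -0.50 and -0.19. Sharing 1 sign was not particular to Fabp4: Fasn, Acsl4, Lpin2 and Dgat2 were also lower in every pair, and Acacb and Pck1 higher in every pair. Cd24a was not lower on the array labelled CD24 siRNA replicate 3. Without that array the Fabp4 difference was -0.82 without the block and -0.49 with it. The Acsl4 difference was then -0.21 without the block and -0.06 with it, and that of Plin2 0.09 and 0.04. No member was called with that array left out.

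**Figure D5:**
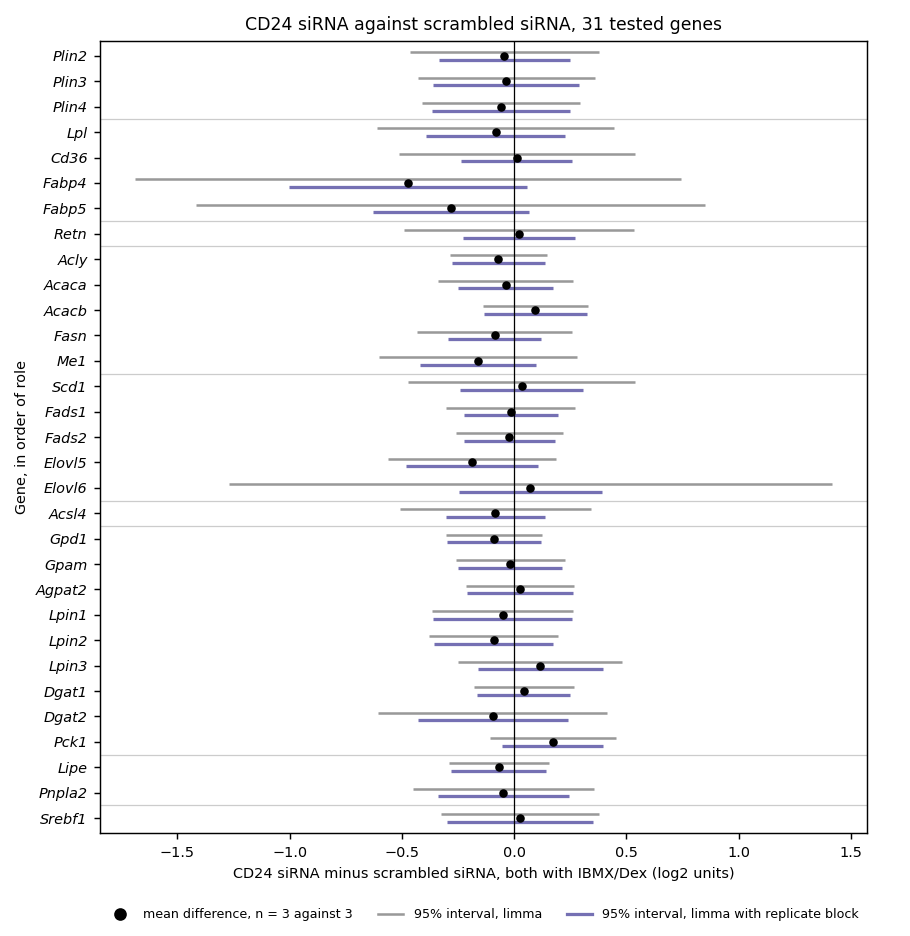
CD24 siRNA minus scrambled siRNA under IBMX/Dex for the 31 tested members, in log2 units on the horizontal axis, with genes down the page in order of role. Black points are mean differences of 3 against 3 arrays, grey lines are 95% intervals from limma and purple lines those with the replicate block; all intervals cross 0, and that of Fabp4 runs from -1.69 to 0.74.

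Other lipid genes, taken as 4 further lists, showed where the rest of the pathway stood. Over all tested genes, 2.92% rose and 3.73% fell with CD24 siRNA, and 3.33% rose and 3.6% fell with scrambled siRNA. Of 11 tested droplet and lipolysis cofactors, 2 rose and 1 fell in both comparisons. Abhd5, the coactivator of adipose triglyceride lipase, was 2.38-fold higher with CD24 siRNA (adjusted p = 0.0092) and 2.47-fold higher with scrambled siRNA (adjusted p = 0.00757). Fitm2, an endoplasmic reticulum protein needed for droplet budding, was 1.84-fold higher with CD24 siRNA (adjusted p = 0.0239) and 1.77-fold higher with scrambled siRNA (adjusted p = 0.0296). Angptl4, a secreted inhibitor of lipoprotein lipase, read 8.53, 8.28 and 8.59 with CD24 siRNA, 9.19, 8.42 and 9.01 with scrambled siRNA and 10.37, 10.18 and 10.00 with vehicle (adjusted p = 0.00228 with CD24 siRNA and 0.00699 with scrambled siRNA). The CD24 siRNA and scrambled siRNA values of Angptl4 overlapped, and it was not called between them without or with the block. The difference was -0.41, with a 95% interval of -0.86 to 0.05, and -0.74 to -0.08 with the block. Its same-numbered differences were -0.67, -0.14 and -0.42. In that comparison 1.73% of tested genes had an unadjusted p under 0.05 in limma with the block, as Angptl4 did. With the block 4 of the 11 rose and 1 fell in both comparisons, where 10.4% of tested genes rose and 12.1% fell with CD24 siRNA. With scrambled siRNA 11.9% of tested genes rose and 11.4% fell with the block. The added genes were Hilpda, an inhibitor of adipose triglyceride lipase, and Bscl2, the droplet assembly protein seipin. With the array labelled CD24 siRNA replicate 3 left out, the unblocked adjusted p for CD24 siRNA was 0.0511 for Fitm2, and the blocked one 0.108 for Hilpda and 0.0724 for Bscl2.

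Of 20 further fatty acid and triglyceride enzymes, none rose and 3 fell with CD24 siRNA, and 1 rose and 2 fell with scrambled siRNA. With the block 4 rose and 6 fell with CD24 siRNA, and 5 rose and 6 fell with scrambled siRNA. Of all tested genes, 6.65% were called with CD24 siRNA and 6.94% with scrambled siRNA. The block raised these shares to 22.4% with CD24 siRNA and 23.3% with scrambled siRNA. Acss2, which activates acetate, was 1.60-fold lower with CD24 siRNA and 1.55-fold lower with scrambled siRNA, and the desaturase relative Fads3 was 1.39-fold lower with CD24 siRNA and 1.41-fold lower with scrambled siRNA. Idh1, a cytosolic NADPH source, was 2.19-fold lower with CD24 siRNA (adjusted p = 0.0327; 8.01e-05 with the block) and 1.98-fold lower with scrambled siRNA (adjusted p = 0.0509; 0.000185 with the block). Agpat5, an acyltransferase, was 2.01-fold higher with CD24 siRNA (adjusted p = 0.0536; 0.000289 with the block) and 2.17-fold higher with scrambled siRNA (adjusted p = 0.037; 0.000154 with the block). With the array labelled CD24 siRNA replicate 3 left out, the unblocked adjusted p for CD24 siRNA was 0.0582 for Acss2, 0.104 for Fads3 and 0.0766 for Idh1. Of 10 tested genes of lipogenic and adipogenic control, none rose and 2 fell in both comparisons, and with the block 1 rose and 3 fell with CD24 siRNA and 3 fell with scrambled siRNA. Srebf2, the transcription factor of cholesterol synthesis, was 1.71-fold lower with CD24 siRNA (adjusted p = 0.0073) and 1.67-fold lower with scrambled siRNA (adjusted p = 0.00804). Insig1, which retains SREBP proteins in the endoplasmic reticulum, was 2.45-fold lower with CD24 siRNA (adjusted p = 0.0079) and 1.96-fold lower with scrambled siRNA (adjusted p = 0.0233). Pparg, the master regulator of fat cell formation, averaged 10.39 ± 0.398 with CD24 siRNA, 10.31 ± 0.451 with scrambled siRNA and 9.99 ± 0.381 with vehicle (SD, n = 3 each) and was not called (adjusted p = 0.461 with CD24 siRNA and 0.564 with scrambled siRNA), although with the block it passed for CD24 siRNA (adjusted p = 0.0352, and 0.11 without the array labelled CD24 siRNA replicate 3). Of 12 tested genes of fatty acid oxidation, none was called without the block, and 2, Acadl and Pdk4, were lower with it in both comparisons. With the block 12.1% of all tested genes were lower with CD24 siRNA and 11.4% with scrambled siRNA.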

How the data were processed

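The deposited table holds log2 signals of 41345 probe sets on 9 single-colour arrays. Per the submitters' processing notes, RMA and the oligo package were used by the authors to obtain the log2 values, whose versions were not given there. RMA corrects background, equalizes array distributions and summarizes probes, so a shift of most transcripts one way would disappear, and dim probe sets show compressed differences. No further scaling was applied to the deposited log2 values.

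Gene symbols are those of the platform annotation, and a check against RefSeq (GRCm38.p6) altered 0 of them. There were 23521 probe sets with 1 symbol, 1814 with several and 16010 unnamed here, and only those with 1 were used. The probe set with the highest mean stood for a gene. Members on more than 1 probe set were Fabp5 (4), Gpd1, Lpin2 and Lpl (2 each). The test took genes with at least 3 of 9 values at or above 6.51, the table's median.

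Differences were fitted with limma 3.58.1 (R 4.3.3; lmFit and eBayes) on all 9 arrays with 1 mean per group, and adjusted by Benjamini-Hochberg over the 12630 genes of each comparison, with a threshold of 0.05. Tests are two-sided. Across genes the median 95% half-width of a difference was 0.341 log2 units, and 3 arrays a group limit the precision. The fits were tested on simulated data.

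Sample titles gave the groups and the replicate numbers. Deviations from group means correlated at 0.377 to 0.732 for same-numbered arrays and at 0.116 or less otherwise, and 9 of 9 arrays correlated best with their own number. The main fit leaves this pairing out, and its SEs, intervals and adjusted p-values are those printed unless the block is named. A second fit took the number as a block, and it is printed where it changes a call. Alternatives were this block, leaving out arrays, other filters, quantile normalization, median centring, averaging over probe sets, an intensity trend in the variance and fits on the 2 compared groups.

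Members, roles and lists were chosen with earlier results of these data known. Array values are given for members past the threshold in any comparison in the fit without or with the block, and for the dim genes Adipoq and Plin1, the members Plin4, Lpl, Fabp4 and Srebf1 and the other gene Angptl4, chosen after their values were seen. Other lipid genes are named where they passed without the block, with Pparg, Acadl, Pdk4, Hilpda and Bscl2 also chosen after their values were seen.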

Additional observations from a re-analysis of the deposited data

How the results depend on the processing

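With the replicate block, the pairing of same-numbered arrays gave 2831 called genes for CD24 siRNA against vehicle (840 without it) and 2942 for scrambled siRNA against vehicle (876 without it), and 14 called members for CD24 siRNA (8 without it) and 15 for scrambled siRNA (10 without it). The block without the array labelled CD24 siRNA replicate 3 called 1763 and 2924 genes in those 2 comparisons. Without replicate number 1, 2 or 3 it called 1299, 1755 and 1528 genes for CD24 siRNA and 1351, 1792 and 1758 for scrambled siRNA. Fits on the 2 compared groups alone called 461 genes and 5 members for CD24 siRNA, and 389 genes and 4 members for scrambled siRNA. With no filter, 5 members were called for CD24 siRNA.

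Leaving out 1 array at a time without the block called 321 to 857 genes and 3 to 8 members for CD24 siRNA, and 313 to 852 genes and 5 to 7 members for scrambled siRNA. Single arrays moved the gene count by over 1.5 times: for CD24 siRNA it was 359 without CD24 siRNA replicate 1, 369 without replicate 2, 321 without replicate 3 and 458 without vehicle replicate 3. For scrambled siRNA it was 581 without CD24 siRNA replicate 2, 496, 472 and 313 without scrambled siRNA replicate 1, 2 and 3, and 485 without vehicle replicate 3. The member count for CD24 siRNA was 4 when CD24 siRNA replicate 1, CD24 siRNA replicate 2 or vehicle replicate 3 was left out, 3 without CD24 siRNA replicate 3, and 5 without scrambled siRNA replicate 2 or vehicle replicate 1. That for scrambled siRNA was 5 when CD24 siRNA replicate 2 or scrambled siRNA replicate 2 or 3 was left out, and 6 for CD24 siRNA replicate 1, CD24 siRNA replicate 3 or vehicle replicate 3.

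Fewer arrays left fewer degrees of freedom in these fits, and the cause of the other shifts was not tested. CD24 siRNA against scrambled siRNA gave 0 called genes in every setting run with limma (30 genes had an unadjusted p under 0.05, and 219 with the block). There were 609 alternatives for 29 named member values. Of these, 478 kept direction and side of the threshold, 97 lost the call, 33 gained one and 1 reversed. The reversal was the Elovl6 difference of scrambled siRNA from vehicle, at 0.043 without scrambled siRNA replicate 1 (range over single omissions -1.09 to 0.043). That omission kept the low vehicle replicate 1, and the same-numbered differences were -0.66, -0.49 and -0.50. Signal over background limits the 12 dim members.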

Other observations

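The members Fabp5, Gpd1, Lpin2 and Lpl had more than 1 probe set, and the dimmer sets gave values that the text does not otherwise use. The second Lpl set read 8.59, 7.35 and 7.70 with CD24 siRNA, 9.55, 7.90 and 8.01 with scrambled siRNA and 9.46, 7.35 and 7.93 with vehicle, so replicate 1 was the highest in every group there too. All 3 further Fabp5 sets had their highest value on replicate 1 in each group, as the brightest set did. The second Lpin2 set read 6.01, 6.91 and 6.25 with CD24 siRNA, 5.39, 6.94 and 6.33 with scrambled siRNA and 5.38, 6.48 and 6.82 with vehicle, with replicate 1 the lowest in every group, while the brightest Lpin2 set stayed between 8.47 and 8.92 on all arrays.

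Among the fibroblast and pre-adipocyte markers, both platelet-derived growth factor receptors fell after IBMX/Dex. Pdgfrb differed from vehicle by -1.61 log2 units with CD24 siRNA and -1.66 with scrambled siRNA, and Pdgfra by -1.10 with CD24 siRNA and -1.04 with scrambled siRNA. They were the 2 called markers of the 9 tested in that list in each comparison, by limma without the block. Of all tested genes, that fit called 6.65% with CD24 siRNA and 6.94% with scrambled siRNA. Desmin (Des), a muscle marker, was also called, at 1.63-fold lower with CD24 siRNA and 1.62-fold lower with scrambled siRNA. With the array labelled CD24 siRNA replicate 3 left out, the adjusted p with CD24 siRNA was 0.0515 for Pdgfra and 0.0676 for Des.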
